A study of Mus musculus with 12 samples.

Results

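Leukemia inhibitory factor (LIF) signaling through the receptor subunit gp130 to the transcription factor STAT3 was examined by 10 genes, chosen by symbol from the 50559 genes of the count table. The ligands were Lif and Cntf, the receptor subunits were Lifr, Osmr, Cntfr and Il6st, the signal transducers were Jak2 and Stat3, and the response genes were Socs3 and Bcl3. Each of the 10 symbols was found once. The rule names the genes and uses no measured value, but the names were put together with earlier results of these data known. RNA-Seq was performed on whole retinas of wild-type C57BL6/J mice at P28, in 4 groups of 3 libraries each. All pups received 30 µg of a rat antibody at P1, either an IgG isotype control (IgG and IgG+Mino groups) or the clone APB5, which blocks PDGFRβ, the receptor through which pericytes are recruited to growing vessels (APB5 and APB5+Mino groups). The IgG+Mino and APB5+Mino groups were also injected with minocycline every day from P5 to P27, at 45 mg/kg. The antibody was given to the whole animal, so its action was not limited to the retina or to a cell type. The libraries of each group came from 3 mice.

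LIF, a cytokine of the interleukin-6 family, binds the LIF receptor, which pairs with gp130 (encoded by Il6st). The paired receptor activates kinases of the JAK family, among them JAK2, and then STAT3. STAT3 enters the nucleus and switches on response genes, among them Socs3, whose product binds gp130 and JAK2 and shuts the signal off again. In the injured retina LIF is known as a survival signal for photoreceptors, made by Müller glia, the radial glia that span the retina.

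The short site below is shown because Socs3 is the feedback gene of this route and was the only one of the 10 genes with a STAT-type motif in its promoter windows. The motif searched was TTCNNNGAA, which reads the same on both strands, in RefSeq windows from 250 bases before to 50 bases after each start site (table build GRCm38.p6). All 10 genes had at least 1 window, with 16 windows in all, and the Socs3 window held 1 match, TTCTTAGAA, which began 154 bases before the start. The motif was found in 8.3% of the 32851 windows of all genes and in 9.55% of the 27025 genes with a window. The capitals mark the motif, with 10 bases on each side, 5′ to 3′ on the minus strand of chr11:117860328-117860356, and the position on GRCm39 is that of the only exact match of the whole window. This stretch also lies in 1 exon of a longer Socs3 transcript of the GENCODE annotation. A match of letters describes the sequence and is not a measured binding site.
Socs3: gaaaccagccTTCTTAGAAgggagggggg

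Reads were counted per gene by the authors, and total counts ranged from 52740545 to 59411044 per library. Levels are given in CPM, the counts of a gene scaled to a fixed library total, computed with edgeR's TMM scaling. Across the 12 libraries, 3 counts corresponded to 0.0456 to 0.0585 CPM, so that even Bcl3, the gene with the fewest reads here, was counted well above that floor, with 120 reads summed over the APB5+Mino libraries. The tissue label was met by the rod photoreceptor genes, whose summed level was 46692 to 69728 CPM in 11 of the 12 libraries. APB5 replicate 3 was the exception with 12305 CPM.

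APB5 replicate 3 stood apart from the other libraries before any gene of this route was considered. Its score on the first principal component of all genes, which held 38.5% of the variance, was 126.9, against −53.8 to 25.6 in the other 11. Summed over the marker genes of a cell type, this library had 585 CPM of 14 microglia and macrophage genes against 18.3 to 71.0 CPM elsewhere, led by the lysozyme gene Lyz2 at 149 CPM. It had 11014 CPM of 10 Müller glia genes against 4465 to 6537 CPM, led by Apoe at 4871 CPM, a gene that other glia express too, while Glul, the leading gene elsewhere, was at 1598 CPM against 1998 to 2815 CPM. It had 1150 CPM of 5 astrocyte genes against 63.9 to 206 CPM, led by Gfap, the filament protein of reactive glia, at 1027 CPM. Genes of the pigment epithelium and melanocytes reached 813 CPM against 40.8 to 172 CPM, led by Ttr, and pericyte and smooth muscle genes 487 CPM against 75.7 to 136 CPM, led by Rgs5. None of the genes of these 5 lists was at 0 counts in it. In whole tissue, fewer cells of a type and less RNA per cell cannot be told apart, and the part of these cells in the levels below was not tested. The tests of the 10 genes that use this library are given with and without it.

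The libraries also differed in sex, which the labels do not give. Xist, the RNA of the inactive X chromosome, was above the summed genes Uty, Ddx3y, Eif2s3y and Kdm5d of the Y chromosome in all 3 IgG libraries, in none of the IgG+Mino libraries, in 1 APB5 library and in 1 APB5+Mino library. The Xist-high library was replicate 3 in APB5 and in APB5+Mino. Sex and minocycline therefore cannot be told apart between IgG+Mino and IgG. Within APB5, sex and the deviation of replicate 3 cannot be separated, also in fits with Xist as a covariate.

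The ligands were scarce RNAs. Lif was counted at 0.981, 0.825 and 2.78 CPM in the IgG libraries (1.53 ± 1.09, mean ± SD, n = 3), at 1.67, 2.59 and 2.05 CPM in IgG+Mino, at 5.98, 2.55 and 34.8 CPM in APB5, and at 1.34, 1.58 and 0.941 CPM in APB5+Mino. The third APB5 library held 80.3% of the summed CPM of its group, with 2289 reads, and the second APB5 library, at 2.55 CPM, lay below the highest IgG library. Cntf, the gene of ciliary neurotrophic factor, was at 5.01, 5.48 and 6.10 CPM in IgG, 4.66, 4.21 and 4.75 CPM in IgG+Mino, 6.76, 6.28 and 23.5 CPM in APB5, and 3.91, 3.37 and 4.14 CPM in APB5+Mino. All APB5 libraries lay above all IgG libraries for Cntf, but the first and second only slightly, and the APB5+Mino libraries lay below those of each of the other groups.

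Of the receptor subunits, Osmr, the signaling chain of the oncostatin M receptor, varied most between groups. Its level was 5.69, 6.79 and 7.13 CPM in IgG, 6.86, 9.14 and 8.18 CPM in IgG+Mino, 13.3, 11.4 and 78.8 CPM in APB5, and 12.6, 15.5 and 13.7 CPM in APB5+Mino. Every library of the APB5 and APB5+Mino groups was above every library of the IgG and IgG+Mino groups, and the first and second APB5 libraries lay in or near the APB5+Mino range. Lifr, the LIF receptor chain, was at 81.7, 79.4 and 52.2 CPM in IgG, 72.1, 107 and 94.4 CPM in IgG+Mino, 80.4, 97.7 and 50.1 CPM in APB5, and 78.5, 95.0 and 85.9 CPM in APB5+Mino. All 4 groups overlapped for Lifr, and its lowest library was the same APB5 replicate 3 in which Osmr was highest.

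Cntfr, the binding chain for CNTF, and Il6st, the shared subunit gp130, differed little between groups. Cntfr had 40.5, 48.2 and 68.4 CPM in IgG and 55.3, 50.1 and 52.3 CPM in APB5, so the APB5 libraries all lay within the IgG range. In IgG+Mino it had 66.8, 57.3 and 57.5 CPM, and in APB5+Mino 61.8, 56.5 and 57.1 CPM. The APB5+Mino libraries lay above the APB5 libraries by a narrow margin. Il6st had 55.6, 67.9 and 55.8 CPM in IgG, 56.3, 78.5 and 79.4 CPM in IgG+Mino, 66.1, 73.9 and 86.9 CPM in APB5, and 70.9, 89.2 and 78.5 CPM in APB5+Mino. The groups overlapped for Il6st in each of the 4 comparisons between groups.

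The kinase and the transcription factor behaved differently from each other. Jak2 was nearly flat, with all 12 libraries between 43.1 and 51.9 CPM and group means of 47.9 ± 4.46 CPM in IgG, 47.7 ± 3.07 in IgG+Mino, 49.5 ± 2.06 in APB5 and 49.5 ± 2.28 in APB5+Mino (n = 3 each). Stat3 was at 102, 107 and 61.0 CPM in IgG, 122, 91.5 and 112 CPM in IgG+Mino, 135, 163 and 266 CPM in APB5, and 98.5, 111 and 95.0 CPM in APB5+Mino. For Stat3 all APB5 libraries lay above all libraries of the other 3 groups, including APB5 replicates 1 and 2.

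The response genes also covered wide ranges. Socs3 had 4.49, 5.34 and 8.10 CPM in IgG, 5.66, 6.89 and 5.42 CPM in IgG+Mino, 26.3, 10.3 and 157 CPM in APB5, and 5.68, 6.69 and 5.54 CPM in APB5+Mino. Bcl3, which encodes a nuclear partner of NF-κB subunits, had 0.508, 0.790 and 1.07 CPM in IgG, 1.46, 1.14 and 0.475 CPM in IgG+Mino, 3.90, 4.03 and 31.0 CPM in APB5, and 0.661, 0.838 and 0.753 CPM in APB5+Mino. For both genes all APB5 libraries were above the 9 libraries of the other groups, and 81.1% of the summed APB5 level of Socs3 and 79.6% of that of Bcl3 came from replicate 3. The mean of APB5 replicates 1 and 2 was 5.02 times the IgG mean for Bcl3, 3.06 times for Socs3, 2.79 times for Lif, 1.88 times for Osmr, 1.66 times for Stat3 and 1.18 times for Cntf.

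**Figure D1:**
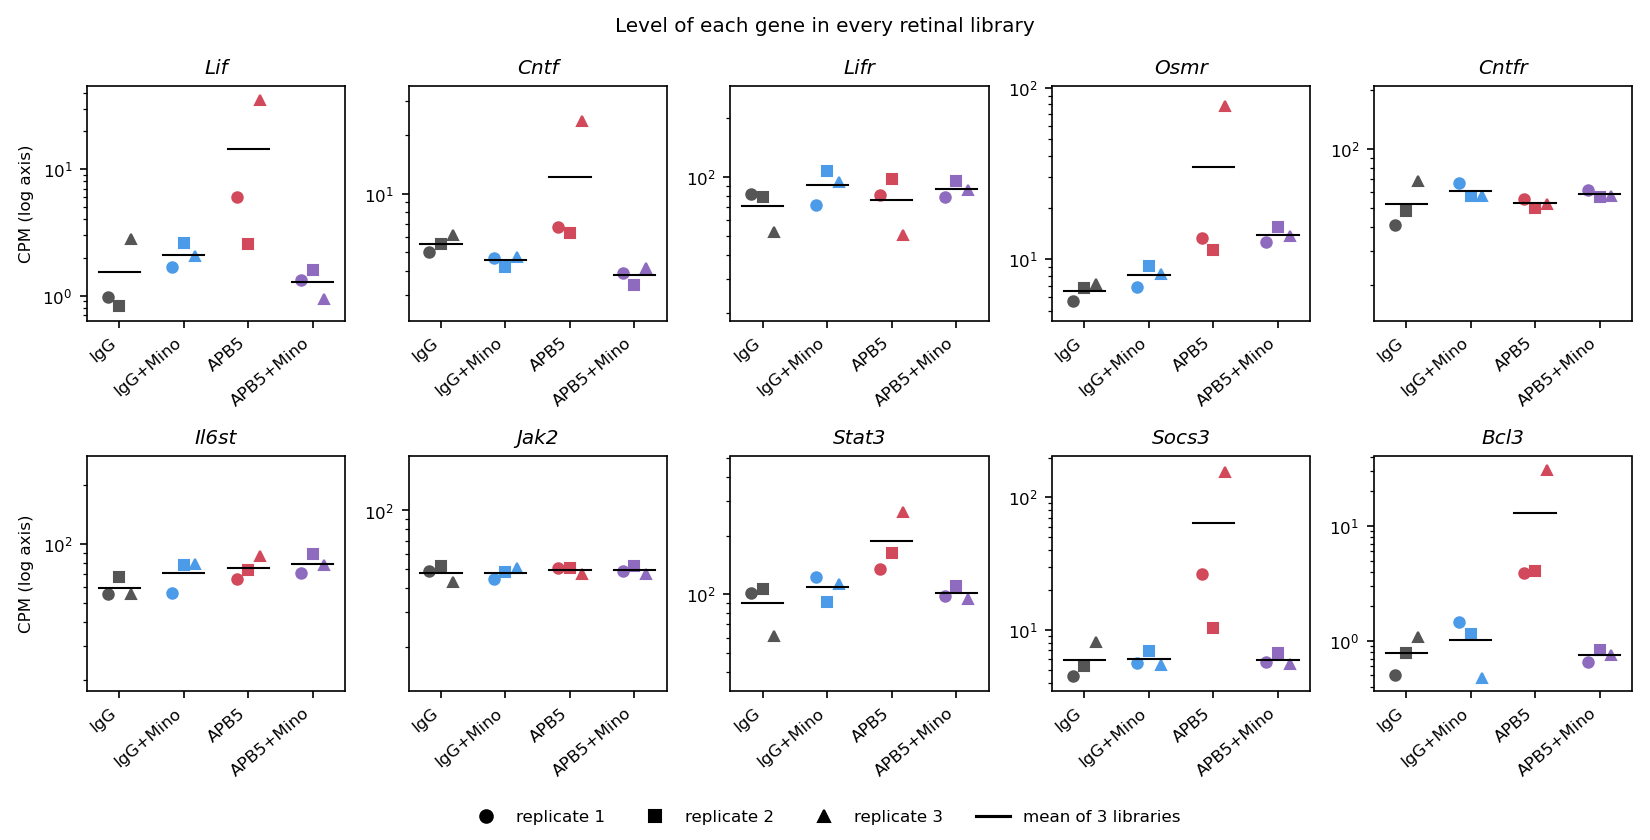
Level of each of the 10 genes in CPM (log axis, scaled for each gene) in the 12 libraries, with 1 point per library, shapes for replicates and a line for the mean of 3 libraries. Socs3, Bcl3 and Lif reached 157, 31.0 and 34.8 CPM in APB5 replicate 3, while Jak2 stayed between 43.1 and 51.9 CPM.

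Levels were compared between genes per length, as TPM (counts divided by the length of the merged exons and scaled to the library), for the 40043 genes matched by symbol to the GENCODE annotation, which held 91.5% to 94.6% of the counts. In IgG retinas the order by mean was Stat3 (44.6 TPM), Jak2 (37.6), Cntfr (34.5), Lifr (25.8), Il6st (19.1), Socs3 (8.21), Cntf (5.76), Osmr (2.61), Lif (1.60) and Bcl3 (0.737). From Stat3 down to Il6st each neighbour overlapped the next over the libraries. Il6st lay above Socs3, Socs3 above Cntf and Cntf above Osmr in every IgG library, and Osmr, Lif and Bcl3 overlapped again with their neighbours. The receptor chains other than Osmr and the transducers were thus the abundant part of the route, and the ligands and response genes the scarce part. In APB5 the Socs3 range, 15.3 to 227 TPM, overlapped those of Stat3 and Jak2, and in APB5+Mino Osmr (5.44 TPM at the lowest) lay above Cntf (4.88 TPM at the highest), the reverse of their order in IgG.

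**Figure D2:**
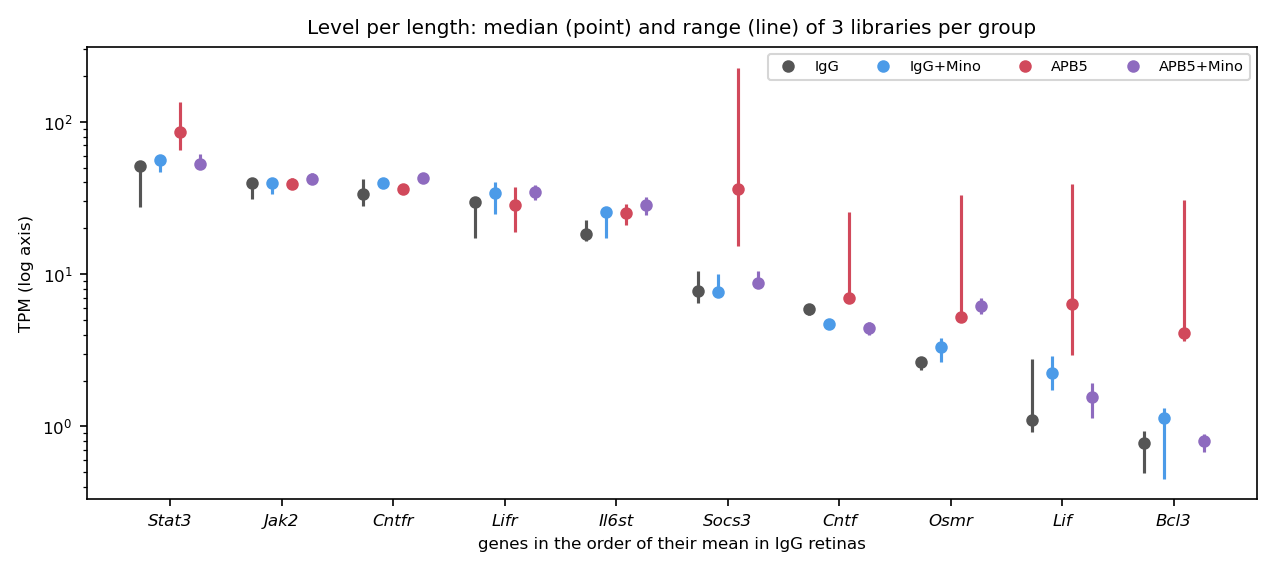
Level per length in TPM (log axis) of the 10 genes in the order of their IgG mean, with points for the median and lines for the range of 3 libraries per group. The 5 genes on the left lay at 16.5 TPM or more in every IgG library, and the APB5 range of Socs3 ran from 15.3 to 227 TPM.

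On GRCm39 the genes lie apart, with Lif (4207557 to 4222514), Stat3 (100775924 to 100830450) and Socs3 (117856905 to 117860898) on chromosome 11, Lifr (7120095 to 7226970) and Osmr (6843053 to 6904450) on chromosome 15, and Jak2 (29228677 to 29290505) and Cntf (12737353 to 12742996) on chromosome 19. Cntfr lies on chromosome 4 (41657498 to 41697089), Il6st on chromosome 13 (112600604 to 112646620) and Bcl3 on chromosome 7 (19541553 to 19557570). Counts are over exons of the whole gene. Cntf shares exons on the same strand with Gm44505, which had at most 5 counts in a library. Stat3 overlaps Stat5a and Gm46295 on the opposite strand, with 162 to 358 and at most 7 counts per library, against 3535 or more for Stat3. The libraries kept the strand, but whether the counting used it is not given in the sources used here.

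The first comparison, APB5 against IgG, asked how blockade of PDGFRβ changed the route 4 weeks after the injection. The data show higher levels of the response genes, of Stat3, of Osmr and of Cntf in all 3 APB5 libraries than in any IgG library, and little difference in Lifr, Cntfr, Il6st and Jak2. Lif was 9.53-fold higher by edgeR's fit, with overlapping libraries. None of these differences passed the test, and the 3 APB5 libraries varied widely. All 10 genes passed the filter on low counts here and in the other comparisons. By edgeR's quasi-likelihood test, 0 of the 10 genes were called, which required an adjusted P no higher than 0.05 and a difference of 1 or more on the log2 scale in either direction, beside 0 of 20350 genes tested (percent called 0). At an unadjusted P under 0.05 with that fold, 659 genes were higher and 112 lower, and DESeq2 called 87 genes, among them Bcl3.

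Bcl3 had the largest log2 fold change of the 10 genes, 4.05 (SE 0.92), followed by Socs3 at 3.44 (SE 0.95), Lif at 3.25 (SE 1.01), Osmr at 2.41 (SE 0.74), Cntf at 1.15 (SE 0.51) and Stat3 at 1.07 (SE 0.31), each with an adjusted P of 0.664 (quasi-likelihood test of edgeR, Benjamini-Hochberg adjusted). The other 4 genes lay between 0.01 (Cntfr) and 0.35 (Il6st). The libraries did not overlap and were higher in APB5 for 5 genes (Cntf, Osmr, Stat3, Socs3 and Bcl3), where 7.83% of all genes tested did the same, and were lower for 0 genes, where 7.86% did. For a single gene the exact permutation test of 3 against 3 libraries cannot give a two-sided P below 0.1. The median log2 fold change was 1.11 over the 10 genes and 0.00 over all genes tested.

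Without APB5 replicate 3 the direction was kept for all 10 genes and the sizes were smaller for most. Bcl3 differed by 2.33 on the log2 scale (SE 0.31, adjusted P = 0.0655, quasi-likelihood test of edgeR), Socs3 by 1.62 (adjusted P = 0.533), Lif by 1.48 (adjusted P = 0.865), Osmr by 0.92 (adjusted P = 0.265), Stat3 by 0.74 (adjusted P = 0.763) and Cntf by 0.24 (adjusted P = 0.902). None was called, and the median over the 10 genes was 0.53. With that library left out the APB5 libraries were all Xist-low and the IgG libraries all Xist-high, so that antibody and sex cannot be told apart in this fit. With Xist as a covariate over all 12 libraries, edgeR called 6 of the 10 genes (Lif, Cntf, Osmr, Stat3, Socs3 and Bcl3, at log2 fold changes of 1.31 to 4.67) and 1185 genes in all. With the same covariate but without APB5 replicate 3 it called 0 of the 10 genes and 0 genes in all. Replicate 3 was the only Xist-high APB5 library, so the covariate cannot separate sex from its deviation. The 6 calls are therefore not read as an effect adjusted for sex.

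**Figure D3:**
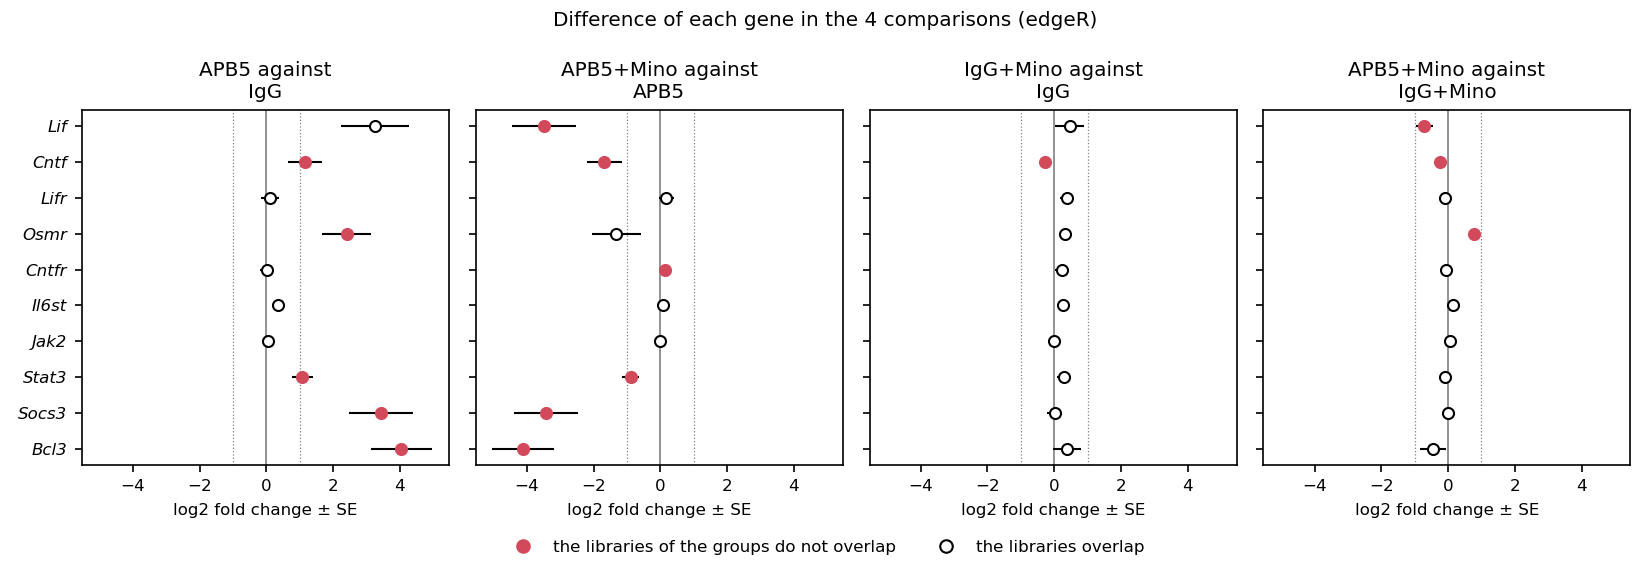
Log2 fold change with its SE (x axis) of the 10 genes in the 4 comparisons between groups, from edgeR. Filled points are genes whose libraries do not overlap between the groups, and dotted lines mark a log2 fold change of 1 in size. In APB5 against IgG 5 genes are filled, all on the right, and in APB5+Mino against APB5 5 are filled on the left and Cntfr, at 0.15, on the right.

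The second comparison, APB5+Mino against APB5, asked how minocycline changed the route after blockade of PDGFRβ. Lif, Cntf, Stat3, Socs3 and Bcl3 were lower in all 3 APB5+Mino libraries than in any APB5 library, and Socs3 and Bcl3 lay at the IgG level there. Osmr was the exception among the genes that were high in APB5, since its APB5+Mino libraries lay inside the APB5 range. The APB5 libraries are shared with the first comparison, so that a high value among them enters both. With all libraries, 0 of the 10 genes were called by edgeR, where 1.66% of the 20281 genes tested were. Of the 10 genes, 5 had an unadjusted P under 0.05 by edgeR, counted at any fold. Over all genes tested, 713 were higher and 1345 lower at that P while also reaching the fold required for a call. DESeq2 called 4 of the 10, among 1548 genes in all.

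On the log2 scale Bcl3 was at −4.12 (SE 0.92, adjusted P = 0.0507, quasi-likelihood test of edgeR), Lif at −3.49 (SE 0.96, adjusted P = 0.0627), Socs3 at −3.44 (SE 0.96, adjusted P = 0.0642), Cntf at −1.68 (SE 0.53, adjusted P = 0.0776) and Stat3 at −0.89 (SE 0.25, adjusted P = 0.0642). Osmr was at −1.32 (SE 0.73, adjusted P = 0.230). The libraries did not overlap and were lower in APB5+Mino for 5 of the 10 genes, where 23.3% of all genes tested were, and higher for Cntfr alone (log2 fold change 0.15, adjusted P = 0.270), where 23.2% were. The median was −1.10 over the 10 genes and −0.02 over all genes tested. With the replicate number as a block, edgeR called 0 of the 10 genes and 0 genes in all, in place of 337, and Bcl3 was at −3.38 (adjusted P = 0.0642), Lif at −2.62 (adjusted P = 0.127) and Socs3 at −2.51 (adjusted P = 0.118).

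Without APB5 replicate 3 the differences of Lif, Cntf, Osmr, Stat3, Socs3 and Bcl3 were smaller in size, and 3 of the 10 genes were called. This fit had no block by replicate number, and a blocked fit without that library was not run. By edgeR's quasi-likelihood test Bcl3 fell by 2.40 on the log2 scale (SE 0.20, adjusted P = 0.000455), Lif fell by 1.73 (SE 0.35, adjusted P = 0.0101) and Socs3 fell by 1.62 (SE 0.31, adjusted P = 0.00861). Cntf, at −0.78 (adjusted P = 0.00821), and Stat3, at −0.56 (adjusted P = 0.00770), passed the adjusted P but not the fold threshold. Osmr was then 0.17 higher in APB5+Mino than in APB5 (adjusted P = 0.340), so that its sign turned. The number of genes called rose from 337 to 956 in this fit, which has 1 Xist-high library of 3 in APB5+Mino and none in APB5. Without APB5 replicate 2, 4 of the 10 genes were called among 1797 in all. Without APB5 replicate 1 none of the 10 and 1 gene in all was called, and when an APB5+Mino library was left out 0 genes were.

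**Figure D4:**
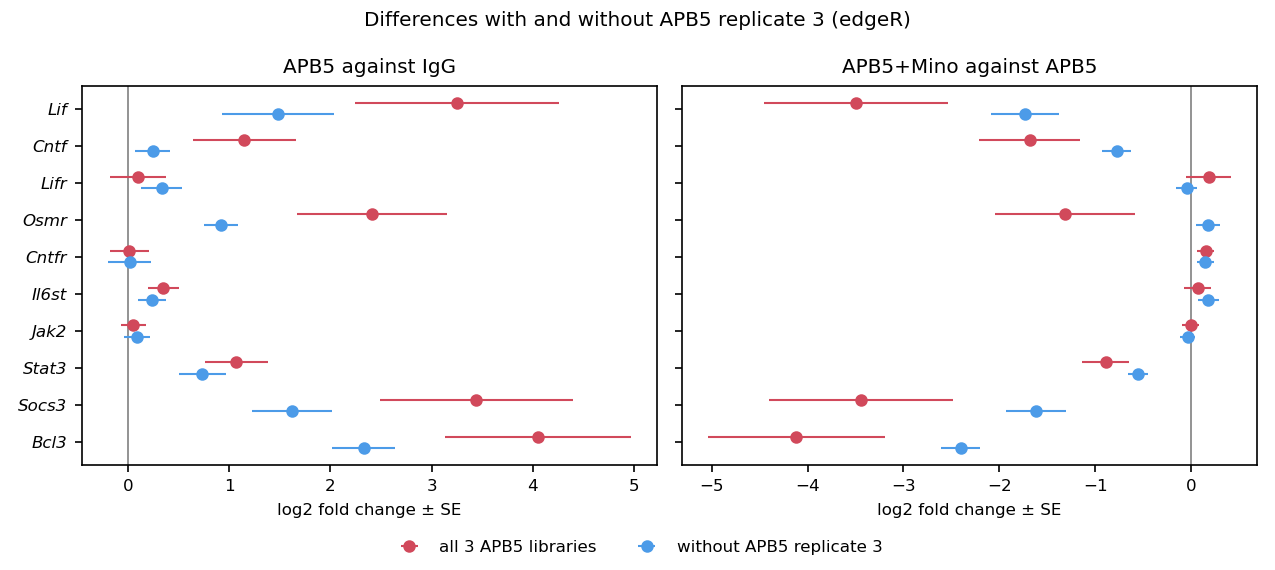
Log2 fold change with its SE (x axis) of the 10 genes with all 3 APB5 libraries (red) and without APB5 replicate 3 (blue), from edgeR. Without it Bcl3 moved from 4.05 to 2.33 against IgG and from −4.12 to −2.40 in APB5+Mino against APB5, and Osmr crossed 0 in the latter, from −1.32 to 0.17.

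The third comparison, IgG+Mino against IgG, asked what minocycline did without blockade of PDGFRβ. None of the 10 genes was called by edgeR, where 0.0298% of the 20143 genes tested were (6 genes). DESeq2 called 21 genes and none of the 10. Of the 10 genes, 0 had an unadjusted P under 0.05 by edgeR. Over all genes tested, 87 were higher and 119 lower at that P with a log2 difference of 1 or more. Log2 fold changes ran from −0.27 (Cntf) to 0.47 (Lif). Socs3 had 5.99 ± 0.785 CPM in IgG+Mino and 5.97 ± 1.89 CPM in IgG, and Stat3 had 109 ± 15.7 and 89.8 ± 25.0 CPM (n = 3 each). Only for Cntf did the libraries not overlap, being lower in IgG+Mino (adjusted P = 0.641 by edgeR), where 7.48% of all genes tested were, and 0 genes were higher, where 6.88% were. All IgG libraries were Xist-high and all IgG+Mino libraries Xist-low.

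The fourth comparison, APB5+Mino against IgG+Mino, asked what remained of the antibody's effect under minocycline. Here Osmr was higher, at 13.9 ± 1.46 CPM against 8.06 ± 1.14 CPM (n = 3 each). The fitted difference was 1.72-fold (0.78 on the log2 scale, SE 0.14, adjusted P = 0.0198, quasi-likelihood test of edgeR). Osmr was the only one of the 10 genes to pass an adjusted P of 0.05, which 8.09% of the 20049 genes tested had at any fold, and under the fold threshold it was not called, nor was any of the 10 genes, while 1.24% of all genes were. With single libraries left out its log2 fold change was 0.68 to 0.88, and its adjusted P by edgeR 0.00821 to 0.115, over 0.05 without IgG+Mino replicate 3 and without APB5+Mino replicate 2 or 3. With Xist as a covariate over all libraries it was 0.40 (adjusted P = 0.591).

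Socs3 (log2 fold change −0.01), Stat3 (−0.10), Jak2 (0.05), Cntfr (−0.05), Lifr (−0.08) and Il6st (0.15) differed by less than the spread between libraries. Bcl3 was at −0.45 (SE 0.38, adjusted P = 0.462 by edgeR), with overlapping libraries. Lif was at −0.71 (SE 0.26, adjusted P = 0.110 by edgeR) and Cntf at −0.26 (adjusted P = 0.288), with no overlap of their libraries, which were lower in APB5+Mino. Thus 1 of the 10 genes lay higher without overlap, where 18% of all genes tested did, and 2 lay lower, where 17.2% did, shares near those of all genes.

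Whether the difference made by minocycline differed between APB5 and IgG retinas was tested by the interaction of antibody and minocycline over all 12 libraries. None of the 10 genes was called by edgeR, where 0.0141% of 21228 genes were (3 genes), and 5 of the 10 had an unadjusted P under 0.05. Over all genes tested, 554 lay above 0 and 972 below 0 at that P with a log2 difference of 1 or more. DESeq2 called 2 of the 10, among 388 genes in all, and edgeR with Xist as a covariate 6 of the 10, among 934. The interaction was −4.49 (SE 1.05, adjusted P = 0.133) for Bcl3, −3.95 (SE 1.10, adjusted P = 0.161) for Lif, −3.44 (SE 1.00, adjusted P = 0.169) for Socs3, −1.16 (SE 0.35, adjusted P = 0.179) for Stat3 and −1.39 (SE 0.57, adjusted P = 0.248) for Cntf by edgeR's quasi-likelihood test. Osmr, at −1.61 (SE 0.79, adjusted P = 0.314), was in the same direction. Without APB5 replicate 3 edgeR called Bcl3 alone of the 10 (−2.80, SE 0.52, adjusted P = 0.0480), among 69 genes in all, and Lif was then at −2.21, Socs3 at −1.64, Stat3 at −0.85, Cntf at −0.51 and Osmr at −0.15. Without APB5 replicate 2 it called 3 of the 10, among 113 genes.

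Other genes of the route were taken from lists written from general knowledge, but with earlier results of these data known. Counts over these lists, also beside the share of all genes, are therefore a description and not independent evidence. Of 9 further ligands and ligand partners of gp130, 5 could be tested against IgG, and the reads of Il6, Osm, Ctf2 and Il27 were few. Il6, the founding cytokine of the family, had 7, 9 and 31 counts in the APB5 libraries, at most 2 in an IgG library and 0 in all IgG+Mino and APB5+Mino libraries. Osm, the ligand of the Osmr chain, had 10, 6 and 35 counts in APB5, 2, 5 and 11 in IgG, 1, 1 and 2 in IgG+Mino and 0, 1 and 0 in APB5+Mino. Both ligand RNAs were thus highest in APB5 replicate 3 and near or at 0 with minocycline, but Il6 was near 0 in IgG without minocycline as well.

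Clcf1, a ligand of the CNTF receptor, was the one of these ligands to be called by edgeR with all libraries of the 2 groups compared. It had 6.70, 7.25 and 6.44 CPM in APB5+Mino and 3.79, 2.45 and 2.28 CPM in IgG+Mino, a difference of 1.26 on the log2 scale (SE 0.20, adjusted P = 0.0163, quasi-likelihood test of edgeR). The call was lost without IgG+Mino replicate 3, without APB5+Mino replicate 2 or 3, and when all 4 groups entered the fit, with or without Xist. Its APB5 libraries, at 3.96, 3.21 and 22.2 CPM, lay on both sides of the APB5+Mino libraries. Clcf1 and Osmr were thus higher with APB5 than with IgG among the libraries given minocycline, while Lif and Cntf were not. Il11, the gene of interleukin-11, fell by 1.64 on the log2 scale in APB5+Mino against APB5 without APB5 replicate 3 (adjusted P = 0.0316 by edgeR). With all libraries it was at −1.81 (adjusted P = 0.0503 by edgeR). Clcf1 was 0.92 higher without APB5 replicate 3 (adjusted P = 0.00528 by edgeR), under the fold threshold, and 4 of the 5 ligands tested were below 0. Without APB5 replicate 2, 4 of these ligands were called in that comparison, among 1797 genes in all.

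None of the other receptors (4 of 5 tested), of the JAK and STAT genes (8 of 9 tested) or of 15 negative regulators was called in the 4 comparisons by edgeR with all libraries of the 2 groups compared. Il6ra, the binding chain for interleukin-6, was at 0.686, 0.620 and 4.61 CPM in APB5 against 0.280, 0.527 and 0.363 CPM in IgG (log2 fold change 2.35, SE 0.84, adjusted P = 0.664, or 0.75 and adjusted P = 0.881 without APB5 replicate 3). Jak3, a kinase of lymphoid and myeloid cells, was at 3.87, 4.74 and 13.4 CPM against 2.19, 2.42 and 2.66 CPM (log2 fold change 1.61, SE 0.48, adjusted P = 0.664, or 0.83 and adjusted P = 0.538 without that library). For both genes the libraries did not overlap between APB5 and IgG. They were higher in APB5 without overlap for 2 of 4 receptors and 1 of 8 JAK and STAT genes, where 7.83% of all genes tested were. Pias3, an inhibitor of STAT3, was the one negative regulator to pass an adjusted P of 0.05 with all libraries, higher in APB5+Mino than in IgG+Mino by 0.40 on the log2 scale (adjusted P = 0.0253). With APB5 replicate 3 left out, edgeR called Ptpn6, the gene of a phosphatase of blood cells, which fell by 1.09 in APB5+Mino against APB5 (adjusted P = 0.0338, or −2.01 and adjusted P = 0.0706 with all libraries), and Pias2, Pias3, Pias4 and Socs5 were higher there by 0.30 to 0.56 with adjusted P of 0.00417 to 0.0232, or by 0.13 to 0.90 and 0.0510 to 0.522 with all libraries. Without APB5 replicate 2, 1 JAK and STAT gene and 2 negative regulators were called in that comparison, among 1797 genes in all, and without IgG+Mino replicate 1, 1 receptor was called in APB5+Mino against IgG+Mino, among 472. The median log2 fold change in APB5 against IgG was 0.15 over the JAK and STAT genes and 0.03 over the negative regulators, or 0.06 and 0.13 without APB5 replicate 3.

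Of 24 known STAT3 target genes other than the response genes above, 23 were tested in APB5 against IgG and none was called, with 22 above 0 and a median log2 fold change of 1.56, where that of all genes tested was 0.00. The libraries were higher without overlap for 11 of 23, where 7.83% of all genes were. The strongest by P were Lrg1 (4.48, SE 0.94), Icam1 (2.15, SE 0.52), Gfap (3.11, SE 0.81) and the acute-phase gene A2m (4.24, SE 1.13), each with an adjusted P of 0.664 by edgeR. Precision for Lrg1 was limited by few reads, so no conclusion is drawn from the size of its difference, with or without APB5 replicate 3. With APB5 replicate 3 left out, the median was 0.23, 18 were above 0, Lrg1 was at 2.91 (adjusted P = 0.101) and Icam1 at 1.34 (adjusted P = 0.284), and 3 were called by edgeR, among 21 genes in all, namely A2m (1.73, adjusted P = 0.0121), Gfap (1.45, adjusted P = 0.0117) and Lcn2 (1.33, adjusted P = 0.0430). Summed over the list, the level was 6493 CPM in APB5 replicate 3 and 1087 to 1669 CPM in the other libraries.

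In APB5+Mino against APB5, 2 of 22 STAT3 targets were called, where 1.66% of all genes tested were. Cebpb fell by 3.17 (adjusted P = 0.0447) and Junb fell by 2.98 on the log2 scale (adjusted P = 0.0461, edgeR's quasi-likelihood test), both genes of transcription factors. Cebpb was at 41.3, 24.3 and 98.9 CPM in APB5 and at 5.61, 6.81 and 5.95 CPM in APB5+Mino. Pim3, a kinase gene, passed the adjusted P but not the fold threshold (−0.87, adjusted P = 0.0461, or −0.77 and adjusted P = 0.00497 without APB5 replicate 3). The libraries were lower without overlap for 18 of 22, where 23.3% of all genes were, and the median was −2.28, against −0.02 over all genes. With APB5 replicate 3 left out, 10 of 22 were called, all lower, with a median of −0.97, among 956 genes called in all. They included Gfap (−2.14, adjusted P = 0.000244), A2m (−2.12, adjusted P = 9.39e-05), Cebpb (−2.43, adjusted P = 0.000455) and Junb (−2.12, adjusted P = 0.00111) by edgeR. No gene was called in this comparison once libraries were blocked by replicate number.

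With minocycline in both groups the targets lay on both sides of 0. In APB5+Mino against IgG+Mino 1.24% of all genes tested were called, and 1 of 22 targets was called higher, Lrg1 (2.64, SE 0.44, adjusted P = 0.0169 by edgeR), a secreted glycoprotein gene, at 0.393, 0.468 and 0.414 CPM against 0.0910, 0.0704 and 0.0365 CPM. The latter were 5, 4 and 2 reads, so that the size of this difference rests on few reads. Most reads of Lrg1 here were in the group where it was high, and no conclusion is drawn from this call. Of the 3 called lower, Cebpb fell by 1.45 on the log2 scale (adjusted P = 0.0125). Bcl6, a transcriptional repressor, was 0.71 higher (adjusted P = 0.0163), and Pim3 (−0.76, adjusted P = 0.0125) and Gfap (−0.64, adjusted P = 0.0457) were lower without reaching the fold threshold. None of the 22 was called without IgG+Mino replicate 3, without APB5+Mino replicate 2 or 3, or when all 4 groups entered the fit, with or without Xist, and 2 were without APB5+Mino replicate 1. The median was −0.23. In IgG+Mino against IgG 0 of 22 targets were called.

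Of 14 reactive glia genes, 4 (Gfap, Lcn2, Cebpd and Serpina3n) were also in the list of STAT3 targets. All 14 were above 0 in APB5 against IgG, with none called, 9 higher without overlap (7.83% of all genes tested) and a median log2 fold change of 1.92, or 0.83 without APB5 replicate 3, where Fgf2, Gfap and Lcn2 were called by edgeR among the 21 genes. Fgf2, a growth factor, was at 78.7, 105 and 155 CPM in APB5 and 25.0, 30.0 and 21.7 CPM in IgG (log2 fold change 2.15, SE 0.27, adjusted P = 0.322 by edgeR, or 1.85 and adjusted P = 0.0189 without APB5 replicate 3). In APB5+Mino against APB5 2 of 14 were called by edgeR, where 1.66% of all genes tested were, or 6 of 14 without APB5 replicate 3, among 956 genes in all. Edn2, the gene of endothelin-2, fell by 3.57 (adjusted P = 0.0430) and Fgf2 fell by 1.80 on the log2 scale (adjusted P = 0.0430), and without that library they were at −2.96 and −1.49. Edn2 had 29.9, 37.6 and 86.7 CPM in APB5 and 3.0, 6.22 and 3.86 CPM in APB5+Mino. Whole retina was read, so the name of the list does not tell which cells held these RNAs. For FGF2, the paper reports the protein together with the microglia marker Iba1 in APB5 retinas.

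Of 9 NF-κB genes whose products can pair with BCL3, none was called by edgeR in the 4 comparisons with the libraries of the 2 groups compared, with medians of 0.63 in APB5 against IgG and −0.42 in APB5+Mino against APB5, or 0.18 and −0.04 without APB5 replicate 3. Nfkb2 was the first of them by P in APB5 against IgG, at 3.63, 3.56 and 12.9 CPM in APB5 and 1.93, 2.18 and 2.06 CPM in IgG (log2 fold change 1.72, SE 0.53, adjusted P = 0.664, or 0.81 and adjusted P = 0.521 without APB5 replicate 3). Its level in APB5+Mino, 3.18, 3.55 and 2.73 CPM, lay above all IgG libraries too. Summed over the list the level was 276 CPM in APB5 replicate 3 and 143 to 176 CPM in the other libraries.

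The counts of list genes called depended on the fit. With Xist as a covariate over all 12 libraries, edgeR called 13 STAT3 targets, 12 reactive glia genes, 2 ligands, 1 receptor, 2 JAK and STAT genes, 1 negative regulator and 2 NF-κB genes in APB5 against IgG, among 1185 genes in all. In APB5+Mino against APB5 the same fit called 16, 11, 4, 1, 1, 3 and 0 genes of these lists, among 1952. With single libraries left out of the latter comparison, 0 to 17 STAT3 targets and 0 to 9 reactive glia genes were called, the most without APB5 replicate 2. DESeq2 called 3 STAT3 targets and 2 reactive glia genes in APB5 against IgG, among 87 genes, and 11 and 9 in APB5+Mino against APB5, among 1548, with 2 ligands, 1 receptor, 1 JAK and STAT gene, 2 negative regulators and 1 NF-κB gene.

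**Figure D5:**
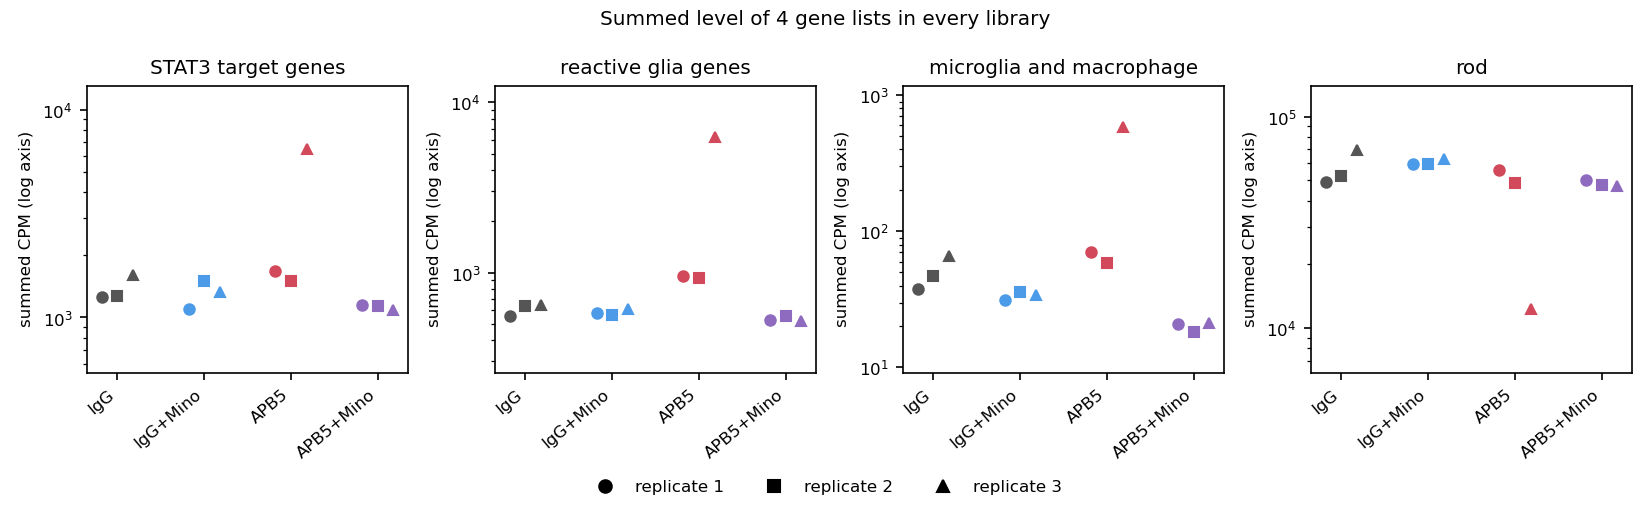
Summed level in CPM (log axis) of the STAT3 target, reactive glia, microglia and macrophage, and rod gene lists in the 12 libraries, with 1 point per library. APB5 replicate 3 has 6493, 6241, 585 and 12305 CPM, outside the range of the other 11 libraries in each list.

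Summed levels of cell type markers also differed between the groups apart from APB5 replicate 3, not all in the same way. The summed microglia and macrophage level was 71.0 and 58.1 CPM in APB5 replicates 1 and 2, 37.8 to 65.7 CPM in IgG, 31.2 to 35.8 CPM in IgG+Mino and 18.3 to 21.2 CPM in APB5+Mino, led by Csf1r, the receptor on which microglia depend, or the complement gene C1qa in each library other than APB5 replicate 3. At most 1 of the 14 genes was at 0 in a library, and 1 of 14 was called lower in APB5+Mino against APB5, where 1.66% of all genes tested were called, or 9 of 14 without APB5 replicate 3, among 956 genes in all. The summed astrocyte level was 193 and 206 CPM in APB5 replicates 1 and 2, 92.1 to 98.6 CPM in IgG and 63.9 to 71.7 CPM in APB5+Mino, led by Gfap. Müller glia genes summed to 6469 and 5949 CPM in APB5 replicates 1 and 2, 5074 to 6537 CPM in IgG and 4465 to 4667 CPM in APB5+Mino, led by Glul. Thus both APB5 libraries lay inside the IgG range for Müller glia genes, and 1 of them for microglia genes. Pericyte and smooth muscle genes summed to 136 and 133 CPM in APB5 replicates 1 and 2, 105 to 118 CPM in IgG, 86.2 to 95.6 CPM in IgG+Mino and 75.7 to 80.3 CPM in APB5+Mino, and 8 of 9 were lower without overlap in APB5+Mino than in APB5, where 23.3% of all genes tested were. Endothelial genes summed to 268 and 274 CPM in APB5 replicates 1 and 2, 209 to 267 CPM in IgG and 183 to 208 CPM in APB5+Mino, led by Flt1 or Kdr, with 6 of 8 lower without overlap in APB5+Mino than in APB5. Pigment epithelium and melanocyte genes summed to 132 and 107 CPM in APB5 replicates 1 and 2, 90.8 to 172 CPM in IgG, 47.4 to 146 CPM in IgG+Mino and 40.8 to 70.4 CPM in APB5+Mino, led by Ttr or Dct, with 5 of 8 lower without overlap in APB5+Mino than in APB5. The part of these cell types in the levels of the 10 genes was not tested. Neutrophil and T cell genes summed to 4.41 CPM in APB5 replicate 3, led by S100a8, and to at most 1.26 CPM in the others, led by Cd8a, with 1 to 7 of 9 genes at 0.

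The genes whose log2 CPM was most like that of Lif over the 12 libraries, among 15811 genes, were Gltp (Pearson r = 0.99), Cyp2j6 (0.97), Rhog (0.97), F3 (0.97) and Gadd45b (0.96), and Socs3 was next at 0.96. Without APB5 replicate 3, r was 0.95 for Gltp and 0.86 for Socs3. The points share their libraries and groups and include the library that stood apart, so these values only describe likeness. For Stat3 they were Zfp217 (0.96), Gm13821 (0.95), Ror1 (0.94), Fam83f (0.94) and Trim21 (0.93), with Zfp217 at 8.27, 8.19 and 18.1 CPM in APB5 and 3.76 to 7.28 CPM in IgG. Bcl3 ranked 230th for Stat3 (r = 0.82, or 0.54 without APB5 replicate 3) and Lif ranked 1070th (r = 0.69, or 0.17).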

How the data were processed

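Strand-specific libraries were prepared from poly-A RNA and read from a single end. The authors converted reads with bcl2fastq 2.20, aligned them by the DRAGEN RNA pipeline to mm39 with an NCBI annotation, and deposited counts of reads per gene without normalization. The DRAGEN version is not given in the sources used here. The table repeats 3 columns, identical to those they repeat, which were not used, and 0 columns could not be assigned to a sample. The authors' result tables, which hold log2 fold changes, P values and group means of their own comparisons, were not used.

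CPM with TMM scaling (prior count 2 on the log2 scale), TPM and all tests were computed here in R 4.3.3 with edgeR 4.0.16 (limma 3.58.1). Only the groups compared entered a fit. Low-count genes were filtered out with filterByExpr. Genes were called by edgeR's quasi-likelihood test where P, adjusted by Benjamini-Hochberg over all genes tested, was no higher than 0.05 and the difference was 1 or more on the log2 scale in either direction. The fits were tested on simulated data with known changes. The alternatives were RLE scaling, library size only, no count filter, DESeq2 1.42.0, the replicate number as a block, Xist as a covariate, all libraries in a fit and each library left out. Fits without APB5 replicate 3 for gene lists, or with Xist and without that library, were added after seeing the data.

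The genes and the 18 lists (7 of the pathway, 11 of cell types) were chosen with earlier results of these data known. All 10 genes are named, then up to 4 genes of a pathway list with the smallest P in a comparison, the 5 genes most like Lif and Stat3 among genes of at least 1 CPM, and the most abundant gene of a cell type list, except where it is not reported here. Il6, Osm, Il11, Lcn2, the Pias genes, Socs5, Ptpn6 and the further genes called in a list, and the Socs3 value beside those most like Lif, were chosen after their values were seen.

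Replicate numbers are shared between groups and their meaning is not stated. Deviations from the group means correlated by 0.134 to 0.182 for same-numbered libraries in APB5+Mino against APB5, and by −0.157 to 0.0194 for others. Results of this comparison are therefore also given with the number as a block. Replicate 3 was the Xist-high library in both groups, so shared sex and pairing by number cannot be told apart. Whether the numbers mark pairs is not known. In each other comparison at least 1 same-numbered pair was under 0.1.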

Additional observations from a re-analysis of the deposited data

How the results depend on the processing

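The 10 genes' group levels moved by less than the spread between libraries under other scalings in all cases but 1, the APB5 level of Jak2 with library size only. Counts of genes called depended on the processing, and the cause was not tested. In APB5 against IgG, 0 genes were called as reported, 5 without a count filter, 87 with DESeq2 (1 of the 10 genes), 7 with all libraries in a fit, 1185 with Xist as a covariate (6 of the 10 genes), 0 to 21 with a library left out (21 without APB5 replicate 3), and 0 with Xist and without APB5 replicate 3. For APB5+Mino against APB5, 337 genes were called as reported, 5 with library size only, 568 without a count filter (1 of the 10 genes), 1548 with DESeq2 (4), 1952 with Xist (4), 1642 with all libraries in a fit (4), 139 with Xist and without APB5 replicate 3 (1), and 0 to 1797 with a library left out (0 to 4 of the 10 genes). Each such library moved this count by over 1.5 times: it was 1, 1797 and 956 without APB5 replicates 1, 2 and 3, and 0 when an APB5+Mino library was left out. With the replicate number as a block, which treats same-numbered libraries as pairs, 0 genes were called. The block changed no call of the 10 genes in any comparison.

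In IgG+Mino against IgG, 6 genes were called as reported, 15 without a count filter, 21 with DESeq2, 6 to 10 with a library left out (10 without IgG replicate 3), and 0 with all libraries in a fit and with Xist, with or without APB5 replicate 3. For APB5+Mino against IgG+Mino, 249 were called as reported, 0 with all libraries in a fit and with Xist, with or without APB5 replicate 3, and 0 to 472 with a library left out (472 without IgG+Mino replicate 1, 5 without replicate 3, and 161, 0 and 2 without APB5+Mino replicates 1, 2 and 3). For the interaction, 3 were called as reported, 34 without a count filter, 388 with DESeq2 (2 of the 10 genes), 934 with Xist (6), 0 with Xist and without APB5 replicate 3, and 0 to 113 with a library left out (0 to 3 of the 10 genes), the highest without APB5 replicate 2.

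Signs turned mostly for genes near 0, and the cause was not tested. In APB5 against IgG, Lifr (0.10 as reported) was at −0.20 with Xist and at −0.12 to 0.33 with a library left out. Cntfr (0.01) was at −0.031 with Xist, −0.10 with Xist and without APB5 replicate 3, and −0.14 to 0.24 with a library left out, and Jak2 (0.05) at −0.015, −0.0067 and −0.030 to 0.12. For APB5+Mino against APB5, Jak2 (−0.0041) was at 0.0023 with RLE scaling, 0.0081 without a count filter, 0.0024 with DESeq2, 0.010 with Xist and −0.038 to 0.031 with a library left out. Il6st (0.07) was at −0.029 with library size only and at −0.019 to 0.18 with a library left out. With Xist and without APB5 replicate 3, Lifr (0.18) was at −0.069 and Osmr (−1.32) at 0.20, and with a library left out they were at −0.047 to 0.40 and at −1.73 to 0.17.

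In IgG+Mino against IgG, Jak2 (0.0052) was at −0.082 with library size only, −0.089 with Xist, −0.0054 with all libraries in a fit, −0.080 with Xist and without APB5 replicate 3, and −0.067 to 0.070 with a library left out. Socs3 (0.01) was at −0.060 with library size only, −0.29 with Xist and without APB5 replicate 3, and −0.15 to 0.29 with a library left out. Cntf (−0.27) was at 0.73 with Xist, and Lif (0.47) at −0.34 with Xist and without APB5 replicate 3. For APB5+Mino against IgG+Mino, Socs3 (−0.0094) was at 0.020 with library size only, 0.092 with Xist and without APB5 replicate 3, and −0.11 to 0.099 with a library left out. Lifr (−0.08) was at 0.067 with Xist and −0.22 to 0.046 with a library left out, Cntfr (−0.05) at −0.10 to 0.022 and Jak2 (0.05) at −0.0035 to 0.084.

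For the interaction, Jak2 (0.0048) was at −0.0053 with RLE scaling, −0.0092 with library size only, −0.0052 with DESeq2 and −0.058 to 0.082 with a library left out. Lifr (−0.18) was at 0.26 with Xist and −0.43 to 0.040 with a library left out, and Cntfr (−0.06) at 9e-04 with Xist, 0.079 with Xist and without APB5 replicate 3, and −0.29 to 0.095 with a library left out. Apart from Osmr in APB5+Mino against APB5 and Lif and Cntf in IgG+Mino against IgG, no alternative turned the sign of Lif, Cntf, Osmr, Stat3 or Bcl3.

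Precision was limited by 3 libraries per group, by APB5 replicate 3, by the uneven sexes and, for Il6, Osm, Ctf2, Il27 and Lrg1, by counts of few reads. The fits with Xist and without APB5 replicate 3 together, and the gene lists without that library, were chosen after seeing the data.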
